A study of Mus musculus with 13 samples.

Results

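The 10 genes described here are goblet cell genes of the mouse small intestine: the transcription factors Spdef and Foxa3, the secreted or endoplasmic reticulum (ER) proteins Agr2, Clca1, Fcgbp, Spink4, Tff3 and Zg16, the glycosyltransferase Galnt12 and the membrane mucin Muc13. They were taken by gene symbol from the array annotation. Each was read from the probe set that names only that gene and has the highest mean log2 intensity over all 13 arrays. All 10 were found, out of 17097 genes with such a probe set. Each Affymetrix HT MG-430 PM array was hybridized with pooled RNA of 3 mice by the labels. All mice were C57BL/6 and carried the Lgr5-EGFP-ires-CreERT2 allele, in which GFP follows the Lgr5 promoter, so that every group, the Villus and hair bulge groups included, comes from this knock-in and none from a wild type mouse. No age is given in the sources used here. The 4 GFP_High arrays hold intestinal stem cells sorted for bright GFP, and the 3 GFP_Low arrays hold their close descendants, sorted for dim GFP from crypts as well. The 3 Villus arrays hold the epithelium shaken from the villi, and whether these cells passed a gate is not clear from the sources used here. The 3 hair bulge arrays hold Lgr5-expressing cells of the skin, titled GFP dim, and serve as an outgroup from a tissue without goblet cells.

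Goblet cells are the mucus-secreting cells of the intestinal epithelium. They arise in the crypt from stem cell descendants that escape Notch signalling and switch on Atoh1, and the ETS factor Spdef and the forkhead factor Foxa3 act downstream of it in their maturation. Mature goblet cells fold large mucins in the ER, attach O-linked sugars to them in the Golgi, store them in granules and release them with a set of accessory proteins while they move up the villus. The comparisons follow this route: from GFP_High to GFP_Low (the first step), from GFP_Low to Villus (the second step), over both steps, and against the hair bulge.

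Arrays of a group correlated with each other between 0.978 and 0.994 across genes. Lgr5 itself lay between 533 and 793 on the GFP_High arrays, between 12.6 and 66.1 on the GFP_Low arrays, between 4.8 and 6.8 on the Villus arrays and between 479 and 687 on the hair bulge arrays, so that it followed the titles within the intestine, while the hair bulge arrays, titled GFP dim, overlapped GFP_High. One of the label fields is at odds with the GFP level of the title for 3 intestinal arrays (GFP_High 2, GFP_Low 2 and GFP_Low 3) and for all 3 hair bulge arrays, where it says high. The titles were followed, and all comparisons were repeated without the 3 intestinal arrays, called those of opposed labels below. An intensity of 7.9, the 95th percentile of 84 probe sets of olfactory, vomeronasal and taste receptor genes, served as the background level. A group with a mean log2 value at or under it has only an upper bound, and its folds are given as "at least". All 10 members were above this level on all 10 intestinal arrays. In these mixed samples, fewer goblet cells and less RNA per goblet cell cannot be told apart.

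**Figure D1:**
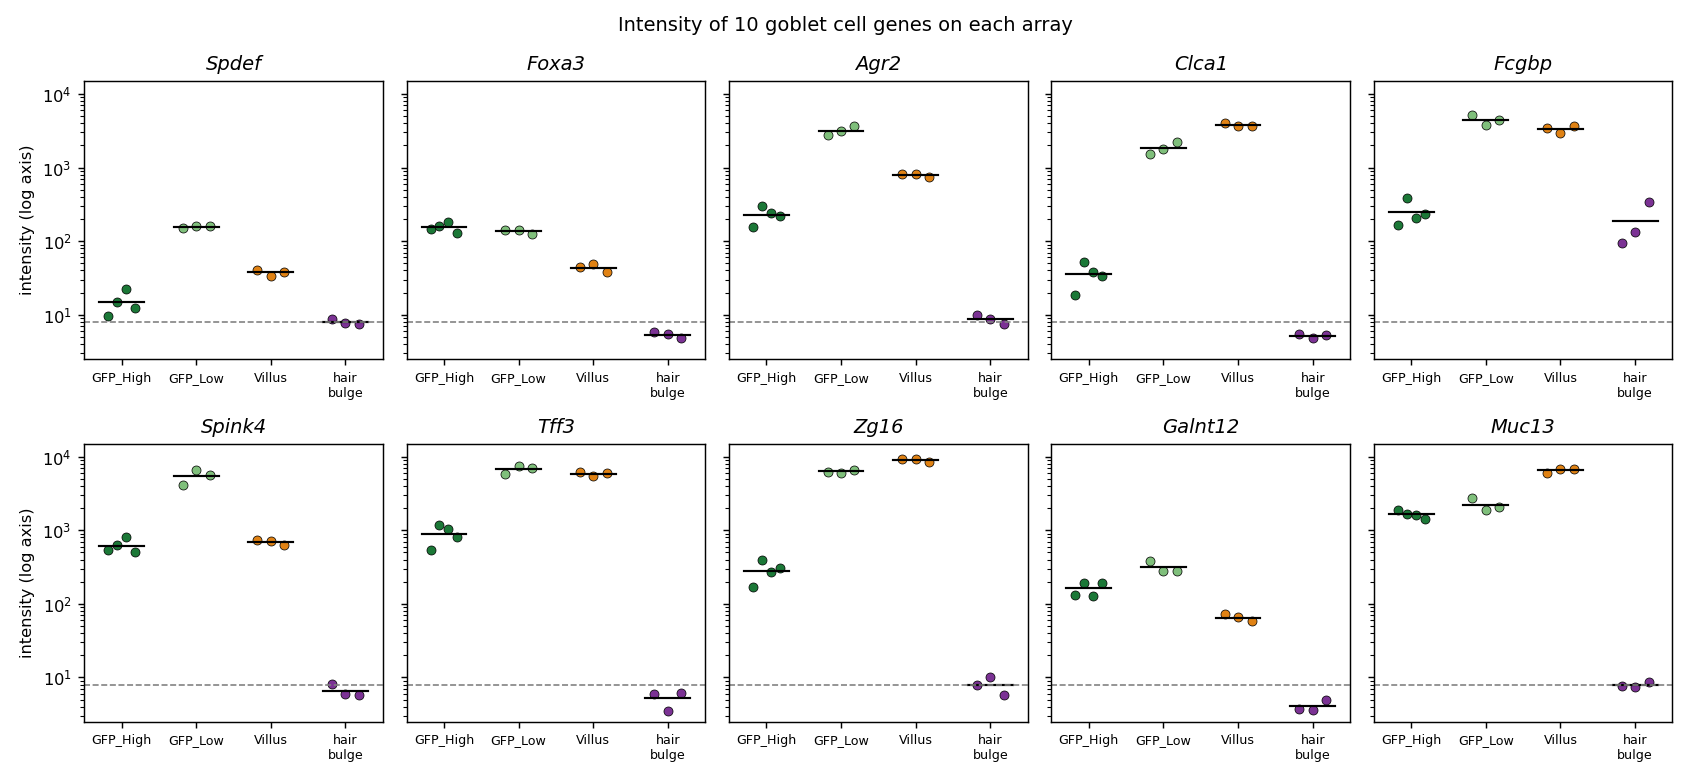
Intensity on a log axis (y) of the 10 members on each array (points) of the 4 groups (x), with the group mean as a bar and the background level of 7.9 as a dashed line. Spdef, Agr2, Spink4 and Galnt12 are highest in GFP_Low, Clca1, Zg16 and Muc13 are highest in Villus, and on the hair bulge arrays only Fcgbp, at 94.5 to 338, stands well off the dashed line.

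Spdef and Foxa3, the factors, behaved differently at the first step. Spdef, which drives goblet cell maturation, had an intensity of 9.7, 15.0, 22.1 and 12.2 on the GFP_High arrays, of 149, 162 and 159 on the GFP_Low arrays, of 40.8, 33.5 and 38.6 on the Villus arrays and of 8.7, 7.7 and 7.6 on the hair bulge arrays. The 4 groups did not overlap, with GFP_Low highest and Villus between GFP_Low and GFP_High. Spdef rose 11.1-fold at the first step (log2 difference 3.47, SE 0.21, limma adjusted p = 1.07e-07) and fell by 2.06 on the log2 scale at the second (SE 0.23, adjusted p = 3.94e-06). Foxa3, a forkhead factor shared by gut endoderm and goblet cells, read 144, 160.2, 179.7 and 131 in GFP_High, 143, 141 and 127 in GFP_Low and 43.9, 49.1 and 38 in Villus. GFP_High and GFP_Low overlapped, and both lay above Villus. The first step for Foxa3 was -0.16 on the log2 scale (95% interval -0.45 to 0.13, adjusted p = 0.517), whereas at the second step it fell by 1.65 (SE 0.14, adjusted p = 4.50e-07), or 3.15-fold. Foxa3 thus stood at 153.8 ± 21.0 (SD, n = 4) in stem cells, at 3.52 times its Villus mean of 43.7 ± 5.55 (n = 3).

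The bases in front of both factor genes are shown here, since the factors moved together at one step and not at the other. RefSeq (GRCm38.p6) gave a start for 5 of the 10 members (Spdef, Foxa3, Agr2, Fcgbp and Muc13), and the 250 bases upstream of it were searched on both strands for 6 short motifs. These were the forkhead cores TGTTTAC and TATTTAC, the E-box CAGCTG, the CDX core TTTATG, the ETS core GGATGT preferred by SPDEF and the TATA box TATAAA. They occur in 3.17%, 2.73%, 13%, 10.8%, 9.46% and 12.4% of the 32851 windows of all genes, in that order. A match is a stretch of letters, not a bound site, and whether any match bears on expression was not tested. In the Spdef window (chr17:27728952-27729201, minus strand) capitals mark TTTATG, 191 bases before the start, and TATTTAC read on the opposite strand, 47 bases before it. In the Foxa3 window (chr7:19023540-19023789, minus strand) capitals mark TATAAA, 36 bases before the start. The GC content was 52.8% for Spdef and 68.8% for Foxa3, against a median of 52.4% over all windows.
Spdef: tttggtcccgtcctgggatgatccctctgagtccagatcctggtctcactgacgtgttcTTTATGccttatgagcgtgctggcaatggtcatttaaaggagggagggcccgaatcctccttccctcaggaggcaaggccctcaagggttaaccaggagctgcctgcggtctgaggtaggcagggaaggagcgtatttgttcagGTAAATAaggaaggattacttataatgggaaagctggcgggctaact
Foxa3: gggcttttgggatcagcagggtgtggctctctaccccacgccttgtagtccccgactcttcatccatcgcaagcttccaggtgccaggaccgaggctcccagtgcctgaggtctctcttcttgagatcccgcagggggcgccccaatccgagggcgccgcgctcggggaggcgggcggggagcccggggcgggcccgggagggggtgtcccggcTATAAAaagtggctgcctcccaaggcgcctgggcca

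All 6 secreted or ER products rose at the first step, by 7.85-fold (Tff3) to 54.7-fold (Clca1). Including Spdef and Galnt12, 8 of the 10 members were called higher (adjusted p under 0.05) and 0 lower, where 6.32% of all genes were called higher and 10.4% lower. Normalizing the arrays once more by quantiles moved the calls over all genes from 1080 higher and 1773 lower to 1380 and 1410, and left the members' counts at 8 and 0. The median log2 difference was 3.31 over the 10 members and -0.04 over all genes. Clca1, a metalloprotease of the mucus, read 18.7, 52.2, 38 and 33.7 in GFP_High and 1519.8, 1812 and 2224 in GFP_Low (log2 difference 5.77, SE 0.26, adjusted p = 9.73e-09). Zg16, a lectin-like mucus protein that binds bacteria, read 168, 389, 269 and 308 in GFP_High and 6215, 6066 and 6632 in GFP_Low (log2 difference 4.54, SE 0.24, adjusted p = 3.82e-08). In GFP_High these genes were measurable on every array, at 1.83% of the GFP_Low mean for Clca1, 4.31% for Zg16 and up to 12.7% for Tff3.

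Fcgbp, a large cross-linked protein of the mucus gel, read 165, 383, 205 and 233 in GFP_High and 5182, 3735 and 4431 in GFP_Low, a rise of 18.8-fold (log2 difference 4.23, SE 0.36, adjusted p = 2.50e-06). Agr2, the ER disulfide isomerase that helps to fold mucins, read 155, 301.5, 243 and 217 in GFP_High and 2741, 3134 and 3692 in GFP_Low, a rise of 14.2-fold (log2 difference 3.83, SE 0.19, adjusted p = 3.31e-08). Spink4, a Kazal-type protease inhibitor of the granules, read 540.4, 627, 802.5 and 499 in GFP_High and 4086, 6669 and 5621 in GFP_Low, a rise of 8.82-fold (log2 difference 3.14, SE 0.20, adjusted p = 1.37e-07). The lowest GFP_Low array of each of these genes lay well above its highest GFP_High array. Tff3, the trefoil peptide that is secreted with mucins, read 539, 1194, 1045 and 803 in GFP_High and 5830, 7477 and 6982 in GFP_Low (log2 difference 2.97, SE 0.25, adjusted p = 2.42e-06).

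At the second step the products parted. Spink4 fell by 2.94 on the log2 scale to 733, 717 and 639 in Villus (7.70-fold, SE 0.21, adjusted p = 5.55e-08), and Agr2 fell by 1.99 to 822, 829 and 738 (3.98-fold, SE 0.21, adjusted p = 2.40e-06). Both returned towards stem cell levels: over both steps Agr2 was 3.57-fold higher in Villus than in GFP_High, while the Villus and GFP_High arrays of Spink4 overlapped (log2 difference 0.20, 95% interval -0.23 to 0.62, adjusted p = 0.458). Clca1 instead went on to rise, to 4061, 3684 and 3711 in Villus (2.09-fold, log2 difference 1.06, SE 0.27, adjusted p = 0.00594). Zg16 was at 9315, 9402 and 8344 in Villus, above all GFP_Low arrays, yet the difference of 0.52 did not pass (95% interval -0.03 to 1.07, adjusted p = 0.128). It passed with the gene's other probe set (0.90, adjusted p = 0.0281), with the mean of both (0.71, adjusted p = 0.0431), with the methods' t-test (adjusted p = 0.00980) and without GFP_High 1 (adjusted p = 0.0460), and its adjusted p ranged up to 0.440 under quantile normalization. The fit uses 1 spread per gene for all 4 groups. For Zg16 the log2 SD was 0.07 in GFP_Low and 0.10 in Villus, against 0.51 in GFP_High and 0.39 in the hair bulge.

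Tff3 and Fcgbp stayed high. Tff3 read 6105, 5509 and 6032 in Villus, within reach of GFP_Low (log2 difference -0.20, 95% interval -0.77 to 0.38, adjusted p = 0.620). Fcgbp read 3480.3, 2924 and 3730.0, just under the lowest GFP_Low array (log2 difference -0.39, 95% interval -1.22 to 0.43, adjusted p = 0.467). These intervals leave room for a moderate change in either direction, but they too rest on the spread shared by all 4 groups. For Fcgbp the log2 SD was 0.24 in GFP_Low and 0.18 in Villus, against 0.52 in GFP_High and 0.95 in the hair bulge. In all, 2 members were called higher and 5 lower at the second step, where 20.8% of all genes were called higher and 21.3% lower, with a median of -1.02 over the members and 0.02 over all genes.

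The windows upstream of Agr2 and Fcgbp are shown as examples of a product that rose and fell and of one that stayed high. In the Agr2 window (chr12:35992675-35992924, plus strand, GC content 44.4%) capitals mark TTTATG read on the opposite strand, 47 bases before the start. Muc13, which did not rise and fall but was highest in Villus, also has TTTATG on the opposite strand, 180 bases before a start (window not shown). In the Fcgbp window (chr7:28070986-28071235, plus strand, GC content 56.4%) capitals mark the E-box CAGCTG, 208 bases before the start.
Agr2: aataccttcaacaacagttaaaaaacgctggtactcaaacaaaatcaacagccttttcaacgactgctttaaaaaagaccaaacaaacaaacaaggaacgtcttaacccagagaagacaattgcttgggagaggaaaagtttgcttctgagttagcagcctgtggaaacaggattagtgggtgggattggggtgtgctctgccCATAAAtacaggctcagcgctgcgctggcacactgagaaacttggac
Fcgbp: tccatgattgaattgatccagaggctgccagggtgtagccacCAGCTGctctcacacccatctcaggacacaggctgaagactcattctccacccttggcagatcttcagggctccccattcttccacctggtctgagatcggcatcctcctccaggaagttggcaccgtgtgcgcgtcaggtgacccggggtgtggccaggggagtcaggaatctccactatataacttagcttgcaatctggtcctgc

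**Figure D2:**
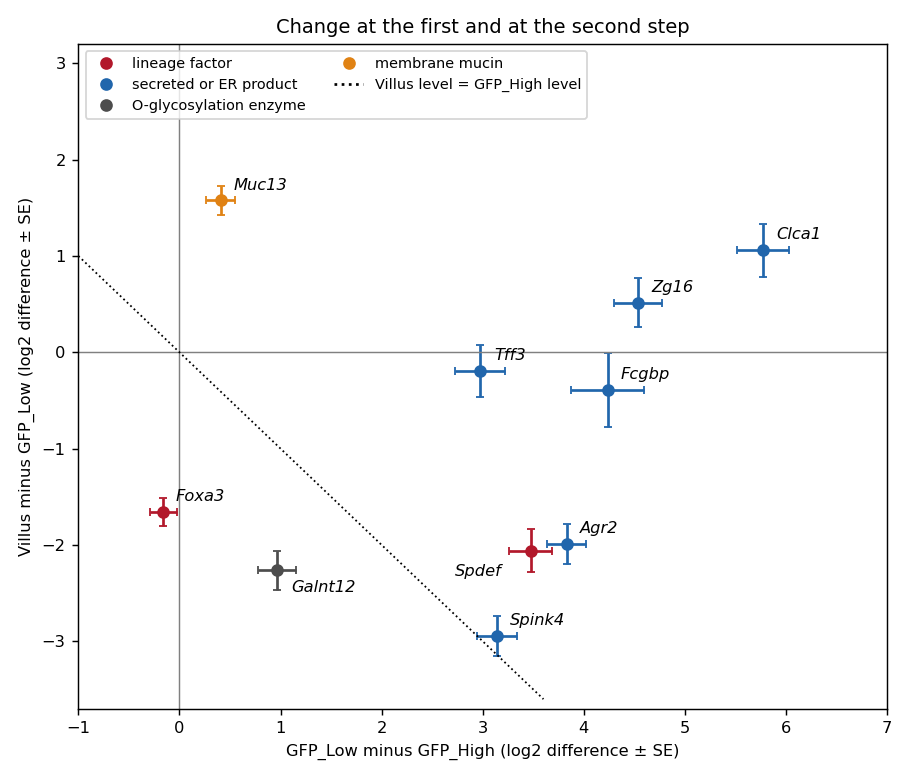
Log2 difference of each member at the first step (x, GFP_Low minus GFP_High) and at the second step (y, Villus minus GFP_Low), each with the SE of the fit; both axes use the GFP_Low arrays, with opposite sign. Products spread from Spink4 (3.14, -2.94), on the dotted line of equal GFP_High and Villus levels, to Clca1 (5.77, 1.06), while Foxa3 (-0.16, -1.65) and Muc13 (0.41, 1.58) changed mainly along the vertical axis.

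Galnt12, an enzyme that starts O-linked glycosylation of mucins, followed Spdef in direction but with a smaller rise. It read 133, 194.6, 129 and 194.6 in GFP_High, 387, 278 and 281 in GFP_Low and 72.2, 65.6 and 57.8 in Villus. The groups did not overlap. It rose 1.95-fold at the first step (log2 difference 0.96, SE 0.19, adjusted p = 0.00318), a call that was lost with the methods' t-test (adjusted p = 0.0724), and fell by 2.26 at the second (4.80-fold, SE 0.20, adjusted p = 5.80e-07). In Villus it was 2.46-fold lower than in stem cells (adjusted p = 4.25e-05).

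Muc13, a transmembrane mucin of the apical surface of goblet cells and enterocytes, read 1897, 1676, 1600.5 and 1441 in GFP_High, 2724, 1860.4 and 2060.1 in GFP_Low and 6059.9, 6701 and 6826 in Villus. GFP_High and GFP_Low overlapped, and Villus lay above both. The first step was 0.41 on the log2 scale (95% interval 0.10 to 0.72, adjusted p = 0.0695), and the second 1.58 (2.98-fold, SE 0.15, adjusted p = 1.28e-06). The first step passed without GFP_Low 2 (0.53, adjusted p = 0.0351), without the 3 arrays of opposed labels (0.74, adjusted p = 0.0313), with 16 added before log2 (adjusted p = 0.0436) and with the mean of its probe sets (adjusted p = 0.0427), and its adjusted p reached 0.299 without GFP_Low 1. Foxa3 and Muc13 stand apart from the products at this step: their 95% intervals end at 0.13 and 0.72, whereas the lowest of the products, that of Tff3, starts at 2.43.

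The difference between the steps, first minus second with their signs, was tested in the same fit. It is positive where GFP_Low lies above the mean of GFP_High and Villus, and does not rank the steps by size. It was called positive for 9 of 10 members and negative for Muc13, where 11.2% of all genes were called in the one direction and 12.3% in the other. For Foxa3 (-0.16 and -1.65) and Galnt12 (0.96 and -2.26) the second step was the larger in size. Among the members the difference was largest for Spink4 (6.08, SE 0.35, adjusted p = 8.47e-08), Agr2 (5.82, SE 0.35, adjusted p = 1.27e-07) and Spdef (5.53, SE 0.38, adjusted p = 3.37e-07). It was 4.71 for Clca1 (adjusted p = 7.28e-06) and 1.49 for Foxa3 (adjusted p = 0.000522). With the second Clca1 probe set, not above background in GFP_High, it was 0.61 and did not pass (adjusted p = 0.0999). For Muc13 it was -1.17 (SE 0.26, adjusted p = 0.00467), which fell short without the 3 arrays of opposed labels (-0.52, adjusted p = 0.402). Over both steps 7 members were called higher in Villus than in GFP_High and 2 lower (Foxa3 and Galnt12), where 22.6% of all genes were called higher and 26.3% lower. Clca1 was 114-fold and Zg16 33.2-fold higher in Villus than in GFP_High (log2 differences 6.83 and 5.05, adjusted p = 5.69e-11 and 4.46e-10).

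Second probe sets exist for 4 members and read the same order of groups. The dimmer set of Agr2 was at 37.7 ± 10.1 in GFP_High (SD, n = 4), 499 ± 98.8 in GFP_Low (n = 3) and 120.1 ± 32.6 in Villus (n = 3). That of Zg16 was at 90.2 ± 36.4, 3075 ± 222 and 5733 ± 473, and that of Muc13 at 183 ± 51.1, 255 ± 42.7 and 908 ± 77.0. The second Clca1 set was not above background in GFP_High (5.5 to 7.5) and rose to 25.5 ± 2.36 in GFP_Low and 66.1 ± 3.18 in Villus. It was not above background in the hair bulge either, so no difference between these groups is given for it.

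On the hair bulge arrays 9 of the 10 members were at or near background. Of the 10 members, 9 were called lower there than in GFP_High, where 29.1% of all genes were, and 10 were called lower than in Villus, where 27.4% were. Foxa3, Clca1, Spink4, Tff3, Zg16 and Galnt12 were not above background in the hair bulge. Tff3 was thus at least 109-fold lower there than in GFP_High and at least 744-fold lower than in Villus (adjusted p = 9.80e-12 and 6.28e-13). Muc13, at 7.6, 7.5 and 8.8, Agr2, at 10, 8.7 and 7.5, and Spdef, at 8.7, 7.7 and 7.6, stood at the edge of the background level, so that their hair bulge levels have no order. Spdef was called lower there than in GFP_High (adjusted p = 0.00472), but not with the methods' t-test (adjusted p = 0.0857).

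Fcgbp was the exception among the members. It read 94.5, 134 and 338 on the hair bulge arrays, above background on all of them and overlapping GFP_High (log2 difference -0.53, 95% interval -1.30 to 0.24, adjusted p = 0.266). The difference passed without hair bulge array 3 (-1.06, adjusted p = 0.00666), the brightest, and its adjusted p reached 0.807 without hair bulge array 1. Fcgbp was still 20.7-fold lower in the hair bulge than in Villus (log2 difference -4.37, SE 0.38, adjusted p = 1.84e-07). The skin arrays had the hair follicle keratins Krt5 and Krt14 at 4905 and 5558 on average. Of 7 enterocyte genes, 5 were not above background there, nor was any of the 4 measured Paneth cell genes.

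**Figure D3:**
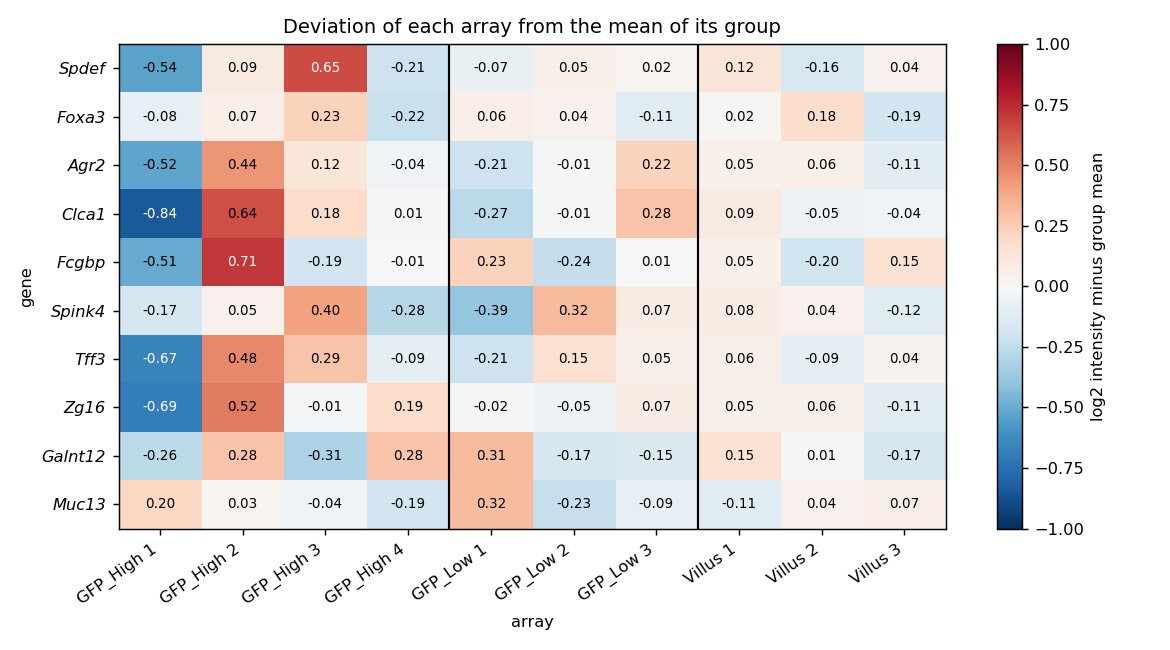
Log2 intensity of each member (rows) on each of the 10 intestinal arrays (columns) minus the mean of its group, as a colour and a number; vertical lines part GFP_High, GFP_Low and Villus. GFP_High 1 is below the group mean for 9 of 10 members and GFP_High 2 above it for all 10, with Clca1 at -0.84 and 0.64, while the Villus values lie between -0.20 and 0.18.

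Within the stem cell group most products differed in the same direction from array to array. GFP_High 1 was below the group mean for 9 of 10 members, with a median deviation of -0.60 on the log2 scale over the 6 products, and GFP_High 2 was above it for all 10, with a median of 0.50. GFP_High 1 had the lowest value for 5 of 6 products and GFP_High 2 the highest for 5 of 6. The highest GFP_High array exceeded the lowest by 2.79-fold for Clca1, 2.32-fold for Fcgbp and 2.32-fold for Zg16, against 1.46-fold, 1.39-fold and 1.09-fold in GFP_Low, which has 1 array fewer. For Spink4 the ranges were alike (1.61-fold and 1.63-fold). Other genes differed between the same arrays: the summed intensity of 9 enteroendocrine genes was 200.2 on GFP_High 1 and 414 on GFP_High 2, Neurog3 was at 29.1 and 89.5, and the stem cell receptor Lgr5 at 793 and 533. The enteroendocrine sum was as low on GFP_High 4 (204.5), where the products had a median deviation of -0.02. Their part in the spread of the members was not tested. The first step of Clca1 was 5.49 to 5.99 on the log2 scale with any single array left out, and 5.72 without the 3 arrays of opposed labels.

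Of 25 measured genes listed as secretory lineage regulators, 12 rose and 5 fell at the first step, with a median of 0.37. The list also holds Notch1 and Hes1 of the Notch pathway, the gut factors Cdx2, Gata4 and Hnf4a, and Rab26, so its counts mix kinds of genes. For this list and those below, the shares over all genes were 6.32% higher and 10.4% lower at the first step. At the second step they were 20.8% and 21.3%. Atoh1, the factor that commits cells to the secretory fate, was at 16.9, 30.9, 34.2 and 23.0 in GFP_High, at 106, 137 and 116.5 in GFP_Low and at 81.4, 91.3 and 71.5 in Villus. It rose at the first step (log2 difference 2.23, adjusted p = 4.90e-06), and the second step of -0.56 did not pass (adjusted p = 0.0562). The endocrine factor Nkx2-2 (at least 4.01-fold, since it was not above background in GFP_High), the secretory cell factor Bhlha15 (2.09) and the endocrine factor Neurog3 (1.97) also rose, and the largest falls were in the receptor Notch1 (-2.09) and the homeobox gene Mnx1 (-1.65). At the second step 1 gene of this list rose and 13 fell. The riser was Klf4, which acts in goblet cell differentiation, from 479.6 ± 52.7 to 1862 ± 411 (log2 difference 1.94, adjusted p = 0.000323), and Neurog3 fell from 190.5 ± 60.8 to a level not above background. Foxa1 and Foxa2, the relatives of Foxa3, had first-step differences of -0.31 (adjusted p = 0.233) and -0.56 (adjusted p = 0.121), and fell by 1.68 and 1.21 at the second step (adjusted p = 2.27e-06 and 0.000935).

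Of 27 measured other goblet cell products, 20 rose and 1 fell at the first step (median 2.59), led by Scin (5.53), the guanylin gene Guca2a (4.74), Hepacam2 (4.71) and Rep15 (4.37), with Wfdc2 lower (-1.55). At the second step 5 rose and 16 fell (median -1.11), where 20.8% of all genes rose and 21.3% fell. The chemokine gene Ccl9 fell by 5.06, Mptx1, not above background in Villus, by at least 4.36, the lectin gene Itln1 by 4.21 and Hepacam2 by 0.82, while the uroguanylin gene Guca2b rose by 3.56 from 468 ± 168 to 5313 ± 299. Tff2, a relative of Tff3, was at 80.1 ± 84.9 in Villus, an SD as large as its mean, and not above background in GFP_High and GFP_Low.

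Of 31 measured mucin glycosylation genes, the companions of Galnt12, 10 rose and 1 fell at the first step (median 0.33). The sialyltransferase gene St3gal4 (4.47), the core enzyme gene Gcnt3 (4.10), the sulfotransferase gene Chst4 (at least 1.72, not above background in GFP_High) and C1galt1c1, the chaperone of the core 1 enzyme (1.32), rose most, and St6galnac2 fell (-0.87). At the second step 9 rose and 6 fell, shares near those of all genes (20.8% and 21.3%), with B3gnt3 (2.32) and St3gal4 (2.06) at the top and the sialic acid synthase gene Nans (-2.0) at the bottom. Galnt12 with its -2.26 fell further than any of these 31 genes. Galnt12 aside, the initiating enzymes differed in direction at this step: Galnt1 rose by 1.27 (adjusted p = 1.48e-05) and Galnt3 fell by 0.52 (adjusted p = 0.0312).

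Of 36 measured genes of protein folding and export, the setting in which Agr2 acts, 26 rose and 1 fell at the first step (median 0.79). Over all genes 6.32% rose and 10.4% fell at this step. At the second step 5 of the 36 rose and 23 fell (median -0.96), where 20.8% of all genes rose and 21.3% fell. Ern2, the stress sensor of mucous cells, went from 19.4 ± 2.07 to 215 ± 22.4 and then to 41.3 ± 2.04 (log2 differences 3.47 and -2.37, adjusted p = 1.95e-09 and 6.67e-09). Selenom rose by 3.17 and fell by 2.66, and the coat gene Sec24d rose at both steps (3.09 and 2.79). The gene that fell at the first step was Agr3, the paralog of Agr2, from 79.1, 62.8, 64.9 and 120 in GFP_High to 7.7, 14.2 and 13.7 in GFP_Low (log2 difference -2.78, adjusted p = 4.67e-06). Agr2 and Agr3 thus moved in opposite directions at this step, with no overlap between the arrays for either gene.

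Among 8 measured genes of the membrane mucin list, Muc3 rose at both steps, from 271 ± 127 to 1164 ± 249 and 4692 ± 803 (log2 differences 2.19 and 2.02, adjusted p = 0.000129 and 8.10e-05). Muc13 and Muc3 were both highest in Villus. Cd24a, which codes for a sialylated surface protein, fell at the second step (-1.44), and 4 of the list (Muc1, Muc16, Muc20 and Emcn) were not above background in any group.

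**Figure D4:**
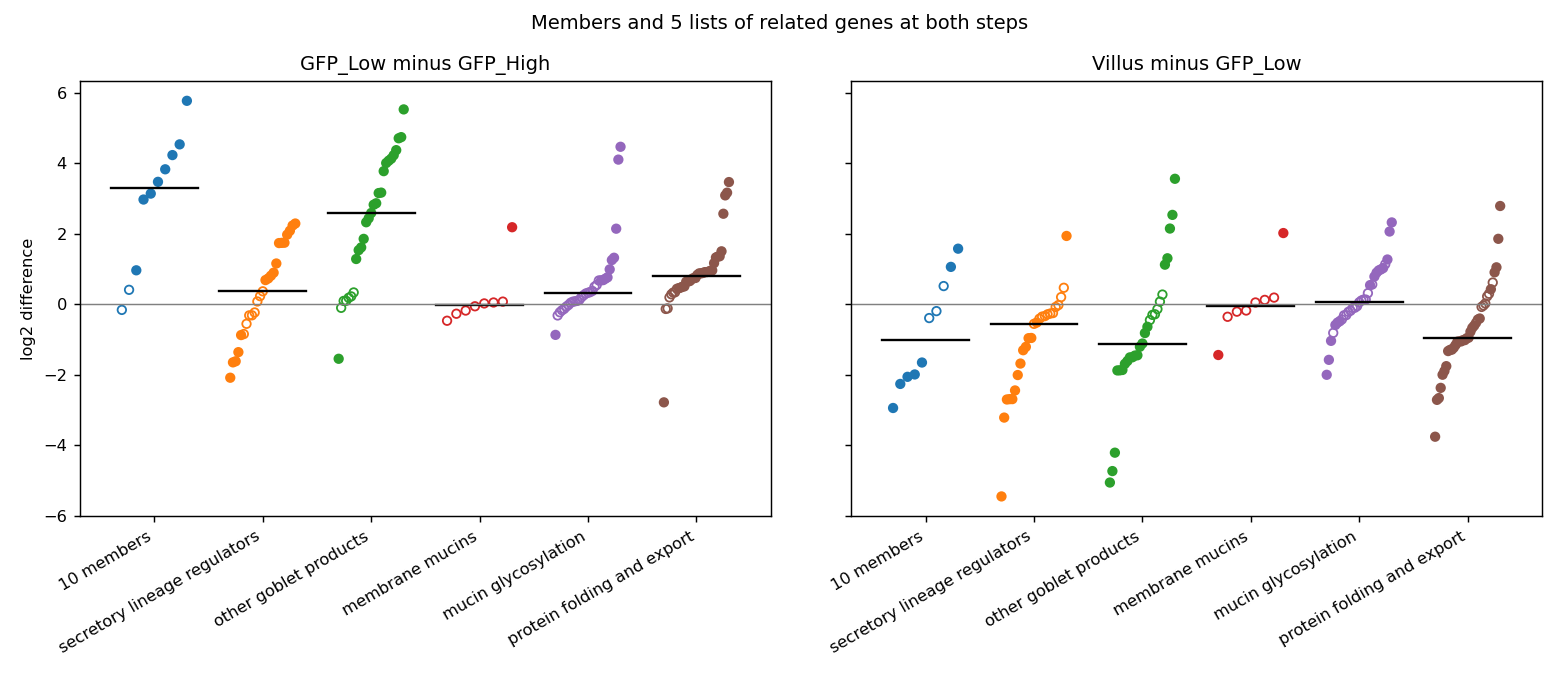
Log2 difference (y) of the 10 members and of each measured gene of 5 related lists (x) at the first step (left) and the second step (right); filled points passed an adjusted p under 0.05 and bars mark medians. At the first step 20 of 27 other goblet products and 26 of 36 folding and export genes rose, where 6.32% of all genes did. At the second 16 and 23 of them fell, where 21.3% of all genes did.

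Genes of other cell types moved at the same steps, and their part in the results above was not tested. At the first step all 9 enteroendocrine genes rose, from a summed intensity of 200.2 to 414 in GFP_High to 6989 to 8134 in GFP_Low, and at the second step 5 of them fell and 2 rose, with a sum of 3274 to 5020 in Villus. Of the 4 measured of 10 listed Paneth cell genes 3 rose, from a sum of 2849 to 5941 to one of 12614 to 21905, and 3 fell to a sum of 506 to 759.9 in Villus; most of this sum is Lyz2, which macrophages share, and Itln1, which is also in the list of goblet products. The Paneth cell protease gene Mmp7 was at 96.0 to 121 on the GFP_High, 720.2 to 1233 on the GFP_Low and 13.4 to 17.6 on the Villus arrays, and the lysozyme gene Lyz1 at 13.3 to 24.6 on the GFP_High, 12.3 to 51.6 on the GFP_Low and 10.7 to 15.1 on the Villus arrays. Enterocyte genes (7 of 9 measured) went from 1701 to 2709, to 7092 to 10427 and to 50345 to 52214. Tuft cell genes (6 of 8 measured) summed to 39.0 to 52.2, 66.4 to 137 and 127 to 160.3, with Gfi1b, Pou2f3 and Il25 not above background in any of these groups. The leukocyte gene Ptprc was at 3.6 to 4.6 on the GFP_High and GFP_Low arrays and at 113 to 188 on the Villus arrays, and of 10 immune genes 7 were not above background in GFP_High and in GFP_Low and 1 in Villus. Proliferation genes (7 measured) summed to 6298 to 7153, 4628 to 5034 and 588 to 701.5. Genes of the early stress response (immediate early and heat shock) summed to 8386 to 15259, 12266 to 13847 and 2823 to 3790 in the same order and to 35954 to 46679 in the hair bulge; all 7 measured fell at the second step (median -2.49), and all 7 were higher in the hair bulge than in GFP_High.

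**Figure D5:**
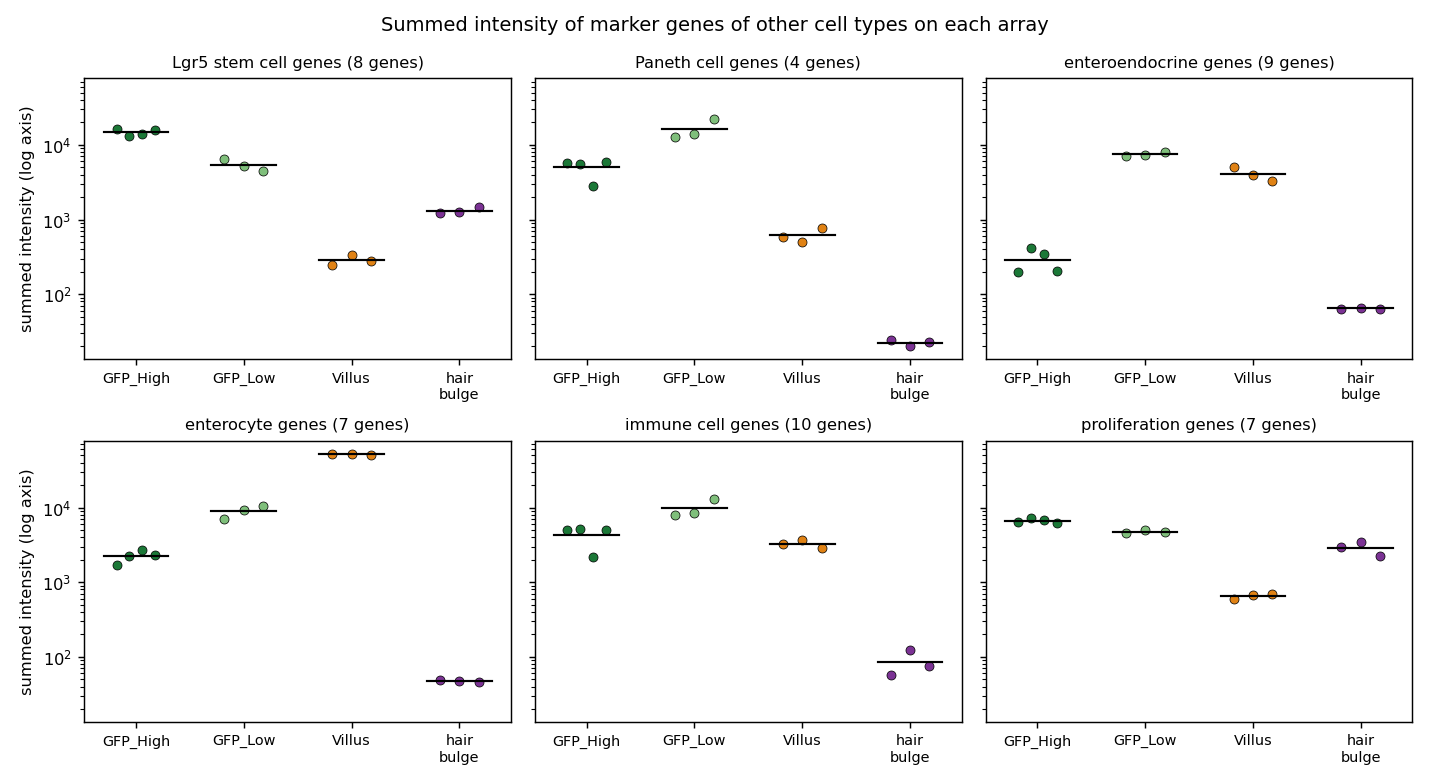
Summed intensity on a log axis (y) of marker genes of 6 lists on each array (points) of the 4 groups (x), with the group mean as a bar. Paneth and enteroendocrine sums are highest in GFP_Low and the enterocyte sum, at 50345 to 52214, in Villus.

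The genes whose log2 profiles were most like those of the members were sought among 11170 genes over the 10 intestinal arrays, which fall into 3 groups, so that Pearson's r mainly follows the group means. The mean profile of the 6 products was closest to Ramp1 (r = 0.995), Hepacam2 (0.994), Hgfac (0.992), Chgb (0.990) and Cck (0.989). Spink4 had r = 0.47 with Clca1 and 0.50 with Zg16, so this mean does not stand for each product. Chgb and Cck code for a granin and a hormone of enteroendocrine cells, and Cck stood at 8.7 in GFP_High, 568 in GFP_Low and 339 in Villus on average. The mean profile of Spdef and Foxa3 was closest to Ccl9 (0.974), Dnajc10 (0.974), Slc39a11 (0.971), Ssr2 (0.967) and Qsox1 (0.967), of which Dnajc10, Ssr2 and Qsox1 code for proteins of the secretory pathway. Spdef and Foxa3 had r = -0.04 with each other, so this mean profile stands for neither factor alone. Galnt12 was closest to Wars (0.971), Pdhb (0.970), Mcf2l (0.967), Krtcap2 (0.967) and L1cam (0.966). Muc13 was closest to Neat1 (0.992), Gfod1 (0.992), Stom (0.992), Gm9895 (0.991) and Pcyt2 (0.991), which all were highest in Villus. Among the members, Clca1 and Zg16 had r = 0.998, Spdef and Agr2 0.984 and Foxa3 and Muc13 -0.956 over the same arrays.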

How the data were processed

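Gene expression of 13 samples was deposited as linear intensities. The authors obtained them with Affymetrix Power Tools (RMA-sketch; version not given in the sources used here), that is, after background correction, normalization between arrays and summary of the probes of each set. The log2 of these intensities was used as it is. Of 45141 probe sets, 28898 name 1 gene, 551 name several and 15692 are not named in the table used; the named ones gave 17097 genes. Depth does not apply to arrays, and the number of arrays limits the precision.

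Groups follow the sample titles. Differences were fitted with limma 3.58.1 in R 4.3.3 (lmFit and eBayes, 4 groups, 13 arrays), and p values were adjusted by Benjamini-Hochberg over all genes. Each gene has 1 spread shared by the 4 groups, so noise of a group outside a comparison enters its SE and interval. Differences are log2 with the SE of the fit or a 95% interval, and group values are mean ± SD of intensities. Samples were described as biological replicates, so p values measure the spread between pools of mice. On simulated data for the first step, 82% of genes changed by a log2 of 1 and 97% of those changed by 2 were recovered, with 6.28% false calls. For the second step these values were 73%, 98% and 7.07%, and for the difference between the steps 31%, 86% and 9.3%. The simulated noise was independent between arrays and had the same spread in every group. Only 200 of the 17097 genes were changed, far fewer than were called in the data. The rates therefore hold for that setting and may differ for these data.

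A number in the titles, whose meaning the labels do not state, is shared by 3 pairs of a GFP_High and a GFP_Low array (and in 1 pair also by hair bulge array 2). The residuals of these pairs correlated at 0.291, 0.451 and 0.320, so the number was also fitted as a block, over these pairs only. The members and gene lists were chosen with earlier results of these data known, and no list was tested as a set. Named are all members, per list the up to 4 genes with the largest change and up to 2 in the other direction, the 5 genes most like each profile, and genes that define other cell types. Also named, chosen after their values were seen, are Foxa1, Foxa2, Galnt1, Galnt3, Tff2, Krt5, Krt14, Hepacam2 at the second step and the membrane mucins that stayed at background. Alternatives covered normalization, an offset of 16, dim genes, probe set choice, the arrays fitted, the eBayes options, the methods' t-test, opposed labels and each array left out. Plots were made in Python 3.11.15 with matplotlib 3.10.9.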

Additional observations from a re-analysis of the deposited data

How the results depend on the processing

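Of 1264 values of members under the alternatives, 1250 kept their side of the threshold, 5 lost and 9 gained the call. This total includes values that could hardly move: where the array left out lies outside a comparison, its difference is unchanged and only its p value can shift. The sign turned for 2 of the 1264 values, neither called in any of the settings concerned: Spink4 between Villus and GFP_High (-0.04 with quantile normalization) and Tff3 at the second step (0.01 without the 3 intestinal arrays of opposed labels). The values whose call changed concern Muc13, Zg16, Clca1, Galnt12, Spdef and Fcgbp and stand beside these genes above, with 1 exception. The second Clca1 probe set lost the call between hair bulge and GFP_High, where neither group was above background. The cause of these changes was not tested. With any single array left out, 8 to 9 members were called at the first step, 7 to 8 at the second, and 9 to 10 between hair bulge and GFP_High. With the shared title number as a block, the pairing left 8 members called at the first step, with Clca1 at 5.99 and Galnt12 at 1.06 (adjusted p = 0.0104), and changed no member's call; over all genes it gave 3067 calls against 2853. With every probe set tested, 28898 in place of 17097 genes, more were called, though a smaller share of those tested. The counts were 11025 against 7202 at the second step and 13064 against 8361 between Villus and GFP_High. They were 12812 against 8301 between hair bulge and GFP_High, and 14552 against 9292 between hair bulge and Villus. The methods' t-test called 1595 genes at the first step after Benjamini-Hochberg adjustment, 7 members among them, and 2267 genes and 8 members at an unadjusted p under 0.01. Without GFP_Low 1 the calls at the first step over all genes turned from 1080 higher and 1773 lower to 1198 and 1054. Limits: 3 arrays per group allow wide intervals, values near 7.9 carry no order, sorted fractions mix cell types, and without the 3 arrays of opposed labels GFP_Low keeps 1 array, whose spread is assumed to be that of the other groups.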
